A study of Oryctolagus cuniculus with 6 samples.

Results

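The genes of glycolysis, lactate handling and pyruvate entry into mitochondria were examined in rabbit retinas, by comparing retinas with proliferative vitreoretinopathy (PVR), a scarring disease of the retina, with normal retinas. A list of 41 genes was matched by symbol to the 28788 genes of the deposited tables, and 40 of them were found. SLC2A3, a glucose transporter, was not matched and is not analysed here. PFKFB1 had between 0 and 11 counts per sample and was below the low-count filter, so 39 genes were tested among 18697. The genes were listed by function, not by their level or change, but with earlier results of these data known.

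The series holds 3 normal and 3 PVR samples of retina from Oryctolagus cuniculus, which the labels describe only by condition and tissue. The rabbits were adults, and in the model the sclera was opened, some vitreous was withdrawn and platelet-rich plasma was put into the vitreous cavity. The strain, the time after injection and whether the normal eyes had any operation are not given in the sources used here. Polyadenylated RNA was sequenced from whole retina, and between 31904593 and 43035080 reads were counted per sample. The labels do not say whether the samples are separate animals, so the p-values measure the spread between these samples, which may be partly technical. In whole tissue, fewer cells of a type and less RNA per cell cannot be told apart.

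One library stood apart in its lens genes. In normal replicate 2 the 9 matched lens genes (crystallins, BFSP1, BFSP2, LGSN and MIP) summed to 35107 FPKM, against 13.2 to 16.2 in the other normal samples and 283 to 331 in the PVR samples. FPKM is the read count scaled by gene length and by the depth of the sample, and allows levels of different genes to be set side by side. SAG, the arrestin of rods, was abundant in all 6 samples, at 1341 to 1869 FPKM.

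Glycolysis splits glucose into pyruvate, which is either reduced to lactate by lactate dehydrogenase or carried into mitochondria and oxidised by the pyruvate dehydrogenase complex. The retina is known for making much lactate even when oxygen is present, chiefly in its photoreceptors. Lactate crosses cell membranes through monocarboxylate transporters (of the SLC16A genes), some of which need the membrane protein basigin (BSG) to reach the cell surface.

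The glycolytic genes had mostly slightly lower values in PVR retina. The log2 fold change, of PVR over normal, was negative for 32 of the 39 genes tested and its median was -0.37, whereas it was negative for 51.1% of all genes tested, with a median of -0.01. After adjustment over all genes, 3 of the 39 genes were lower in PVR, namely SLC2A1, SLC16A1 and SLC16A3, where 0.615% of all genes were called in that direction and 1.7% in either direction. With edgeR, 0 of the 39 were called higher, against 1.09% of all genes. Only PDP1 had a positive value with an unadjusted p under 0.05, against 11.3% of all genes. DESeq2 and limma-voom also called 0 higher, where they called 5.43% and 0.754% of all genes higher. An unadjusted p under 0.05 with a lower level was found for 21 of the 39 genes and for 9.94% of all genes. The 3 PVR samples were all below the 3 normal samples for 19 of the 39, against 9.69% of all genes. All PVR samples were above all normal samples for 1 of the 39, PDP1, against 17.0% of all genes. Most of these genes are abundant, and 32 had a mean of at least 10 FPKM. Among genes at that level, a background chosen after the values were seen, 66.3% of genes and 28 of the 32 had a negative value. The median log2 fold change of all genes at that level was -0.09. The PVR samples were all below the normal samples for 13.9% of genes at that level and for 18 of the 32. The 3 genes called lower were all at that level, at which 0.898% of genes were called lower.

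**Figure D1:**
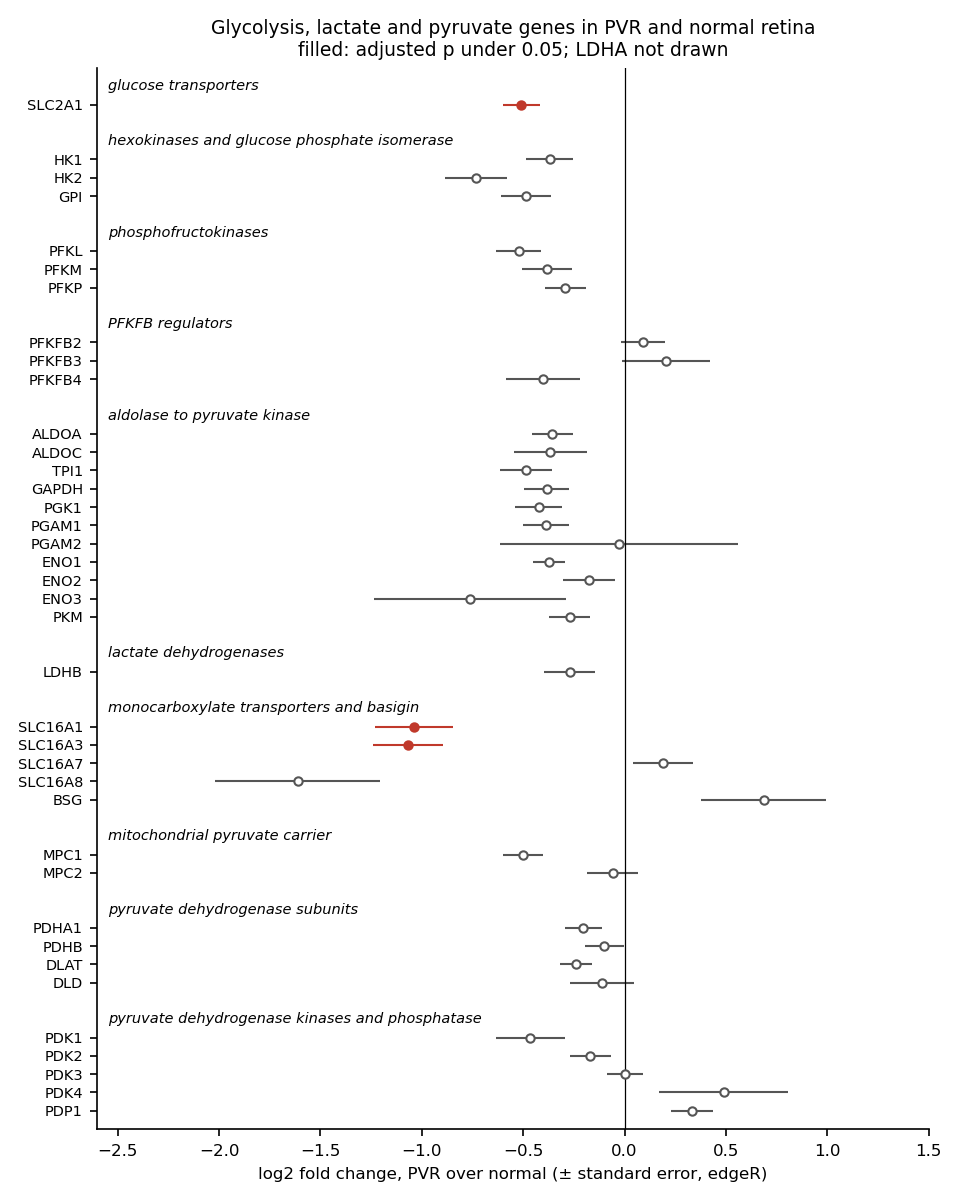
The log2 fold change of each tested gene (PVR over normal, edgeR) is shown on the x axis with its SE, and genes are grouped by role on the y axis. From HK1 to PKM, only PFKFB2 and PFKFB3 lie right of 0, the filled points SLC2A1, SLC16A1 and SLC16A3 passed the adjusted p, and LDHA (-5.66) is left out so that the axis can be read.

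The number of calls depended on the test and on single samples. DESeq2, the tool of the study's methods, called 16 of the genes lower, where it called 3.33% of all genes lower. In addition to the 3 genes above these were HK1, HK2, GPI, PFKL, ALDOA, TPI1, GAPDH, PGK1, PGAM1, ENO1, LDHA, SLC16A8 and MPC1. With limma-voom, SLC2A1 and SLC16A3 were called lower, against 0.396% of all genes. SLC16A3 alone was called with upper-quartile factors (0.519% of all genes), on the log2(FPKM + 1) scale (0.294%) and on the log2(FPKM + 0.1) scale (0.353%). With edgeR, 0 of the genes were called lower without normal replicate 1, against 0.252% of all genes, or without normal replicate 2, against 0.104%. The number was also 0 without PVR replicate 1, against 0.0312%, without PVR replicate 2, against 0.156%, and with the replicate number as a block, against 0.16%. Without PVR replicate 3 the genes called were GPI and SLC16A3, against 0.698% of all genes. Without normal replicate 3 they were SLC2A1, HK2, PFKL, LDHA, SLC16A1, SLC16A3, SLC16A8, MPC1 and PDK1, against 1.3% of all genes. Over the 6 tests that left out a sample, the median log2 fold change of the genes stayed between -0.27 and -0.41.

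Glucose enters retinal cells through SLC2A1 (GLUT1), which is found on the pigment epithelium and on the cells of the retina. SLC2A1 had 326, 326 and 292 FPKM in the normal samples and 229, 235 and 232 FPKM in the PVR samples. The PVR samples were close to each other and all below the normal samples, with 314 ± 19.8 FPKM (SD, n = 3) in normal and 232 ± 3.38 FPKM (SD, n = 3) in PVR. SLC2A1 fell by 0.51 on the log2 scale (standard error, SE, 0.09, adjusted p = 0.0466 by the quasi-likelihood test of edgeR, Benjamini-Hochberg adjusted). The adjusted p lay close to the threshold. With a sample left out, the log2 fold change stayed between -0.57 and -0.46. The adjusted p was 0.0272 without normal replicate 3, 0.135 without normal replicate 1, 0.131 without normal replicate 2, 0.271 without PVR replicate 1, 0.118 without PVR replicate 2 and 0.061 without PVR replicate 3, all by edgeR.

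Hexokinases trap glucose as glucose 6-phosphate. HK2, the form abundant in photoreceptors, had 162, 140 and 109 FPKM in the normal samples and 86.7, 85.9 and 87.2 FPKM in the PVR samples. HK2 had nearly the same level in all PVR samples, and normal replicate 3 was the normal sample nearest to them. The log2 fold change of HK2 was -0.73 (SE 0.15, adjusted p = 0.0638 by edgeR), and the adjusted p ranged from 7.75e-05 with DESeq2 to 0.274 over the 15 alternatives. HK1, the more widely expressed form, had 134, 123 and 129 FPKM in normal and 106, 90.6 and 116 FPKM in PVR. Its log2 fold change was -0.37 (SE 0.12, adjusted p = 0.141 by edgeR). HK2 thus made up 45.8% to 54.8% of the hexokinase FPKM of these 2 genes in the normal samples and 42.8% to 48.7% in the PVR samples, and these ranges overlap. GPI, which converts glucose 6-phosphate to fructose 6-phosphate, showed a log2 difference of -0.49 (SE 0.12, adjusted p = 0.094 by edgeR), with all PVR samples below all normal samples.

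Phosphofructokinase catalyses the committed step of glycolysis. The platelet form PFKP was the most abundant of the 3 forms in every sample, with 48.5% to 54.7% of their summed FPKM. PFKL, the liver form, had 79.1, 73.5 and 62.5 FPKM in normal and 53.3, 49.5 and 54.5 FPKM in PVR. PFKL had the fold change furthest from 0 of the 3 (log2 fold change -0.52, SE 0.11, adjusted p = 0.0674 by edgeR). For PFKM and PFKP the log2 fold changes were -0.38 and -0.29 (adjusted p = 0.151 and 0.166 by edgeR), and for PFKP the groups overlapped.

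The PFKFB enzymes make and break fructose 2,6-bisphosphate, the activator of phosphofructokinase, and showed no common direction. PFKFB2 was the main form, with 81.5% to 82.6% of the family FPKM in normal and 84.7% to 86.7% in PVR. PFKFB4, a hypoxia-responsive form, took 13.5% to 15.2% in normal and 10.1% to 10.8% in PVR. The shares of PFKFB2 and PFKFB4 did not overlap between the groups. The levels themselves did overlap, with log2 fold changes of 0.09 for PFKFB2 and -0.40 for PFKFB4 (adjusted p = 0.66 and 0.258 by edgeR). PFKFB3, the form linked to rapid glycolysis in proliferating cells, had only 1.23 to 2.33 FPKM, and its log2 fold change of 0.20 (adjusted p = 0.614 by edgeR) became -0.006 without PVR replicate 2.

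The enzymes from aldolase to pyruvate kinase included the most abundant of the pathway, and all 11 had negative log2 fold changes. GAPDH, which makes the NADH of glycolysis and is widely used as a reference gene, had 3674, 3543 and 3192 FPKM in normal and 2844, 2500 and 3032 FPKM in PVR. All its PVR samples were below the normal samples. The log2 fold change of GAPDH was -0.38 (SE 0.11, adjusted p = 0.117 by edgeR, 0.0264 with DESeq2). ENO1, the general enolase, had 1216, 1198 and 1182 FPKM in normal and 971, 937 and 1006 FPKM in PVR. Its samples were tight within each group, and its log2 fold change was -0.37 (SE 0.08, adjusted p = 0.0678 by edgeR). The log2 fold changes of ALDOA, TPI1, PGK1, PGAM1 and PKM lay between -0.27 and -0.49, with adjusted p from 0.103 to 0.187 (edgeR). For each of these 5 genes all PVR samples were below all normal samples.

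Other members of this stretch did not separate the groups. ALDOC, the brain aldolase, made up 80.0% to 85.4% of the aldolase FPKM, and had 2290, 2615 and 1763 FPKM in normal and 1832, 1550 and 2059 FPKM in PVR. ENO2, the neuronal enolase, showed a log2 difference of -0.17 (adjusted p = 0.458 by edgeR) and took 21.7% to 25.6% of the enolase FPKM in PVR against 19.6% to 22.7% in normal, which overlap. The muscle forms PGAM2 and ENO3 were near the limit of measurement, at 0.397 to 2.90 FPKM, and the sign for PGAM2 turned with the scaling.

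**Figure D2:**
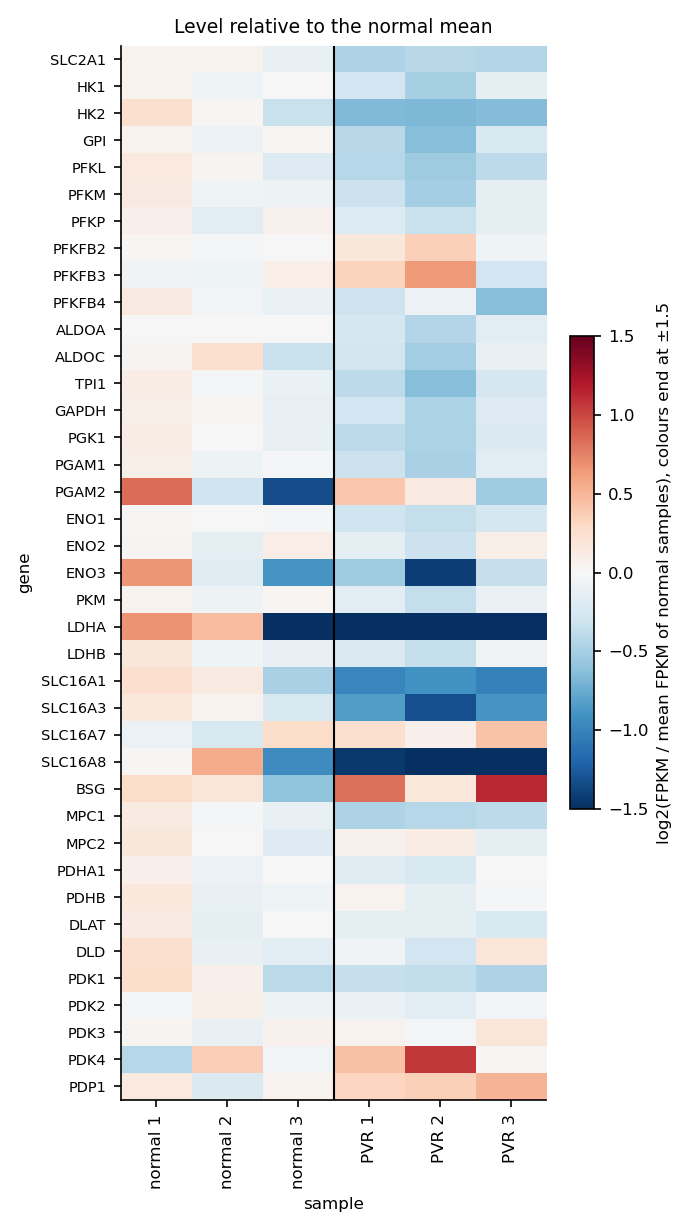
Each tile is the log2 ratio of the FPKM of a gene (y axis) in a sample (x axis) to its mean FPKM in the normal samples, with blue for lower and red for higher levels. The PVR columns are blue for most genes from SLC2A1 to SLC16A8, with 29, 31 and 31 of the 39 genes below the normal mean, and normal replicate 3 has 28 such genes.

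Lactate dehydrogenase is a tetramer of A and B subunits, of which the A form favours the making of lactate. LDHA had 235 and 203 FPKM in normal replicates 1 and 2, 4.19 FPKM in normal replicate 3, and 3.40, 2.58 and 3.28 FPKM in PVR. In counts these were 18187, 16526 and 334 in normal and 216, 166 and 281 in PVR. All PVR samples were below all normal samples, but normal replicate 3 was close to the PVR samples and far from the other normal samples. The fitted log2 fold change of LDHA was -5.66 (SE 1.26, adjusted p = 0.0744 by edgeR). It was -6.22 (adjusted p = 3.68e-05 by edgeR) without normal replicate 3, and -5.17 and -5.33 (adjusted p = 0.174 and 0.182 by edgeR) without normal replicates 1 and 2. With limma-voom it was -4.30 (adjusted p = 0.372). Reads of such enzymes can be shared with processed gene copies, which are common for LDHA, GAPDH and PGK1 in mammalian genomes. Whether such sharing affected the counts here was not tested.

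LDHB, the B subunit, had 362, 307 and 295 FPKM in normal and 277, 251 and 310 FPKM in PVR. Its groups overlapped (log2 fold change -0.27, SE 0.13, adjusted p = 0.265 by edgeR). The LDHA share of the lactate dehydrogenase FPKM was 39.4% and 39.8% in normal replicates 1 and 2, 1.40% in normal replicate 3, and 1.02% to 1.21% in PVR.

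**Figure D3:**
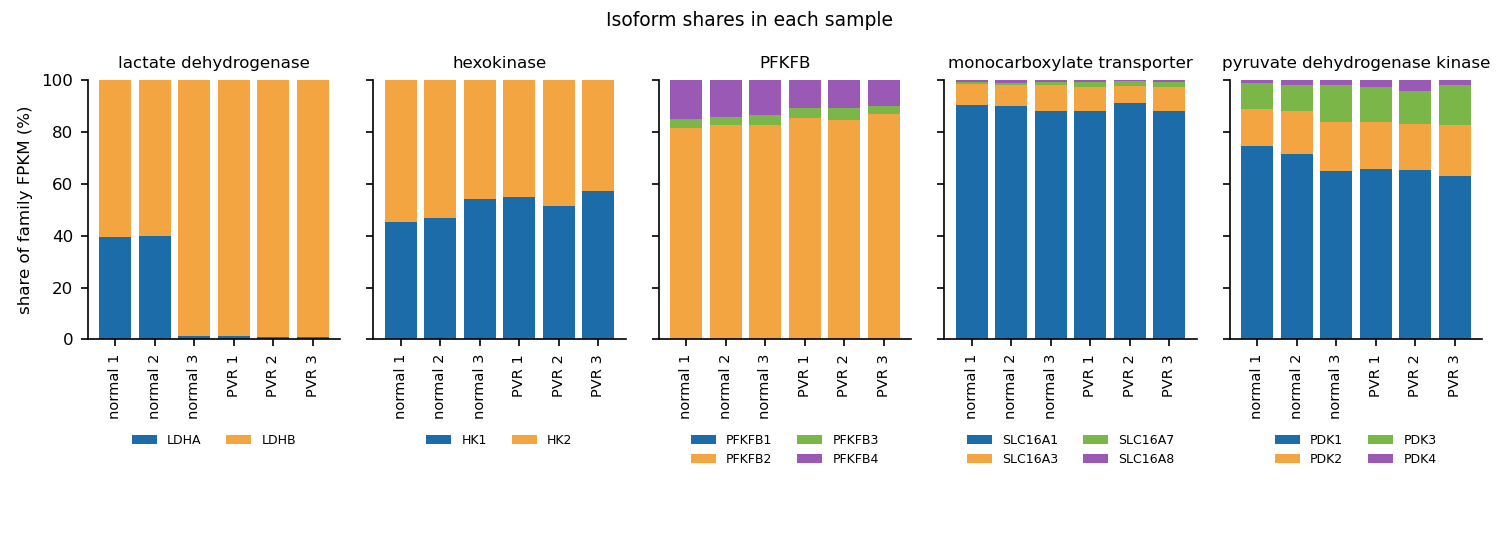
Bars give the share (y axis, percent) of each gene in the summed FPKM of its family in each sample (x axis), for 5 families. The LDHA share is near 40% in normal replicates 1 and 2 and under 2% in the other 4 samples, whereas the shares of the other families shift by much less.

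Apart from LDHA, the log2 fold changes furthest from 0 were those of 3 lactate transporters. SLC16A1 (MCT1), which is found on photoreceptors, glia and the apical side of the pigment epithelium, had 279, 259 and 167 FPKM in normal and 119, 126 and 117 FPKM in PVR. SLC16A1 was lowest among the normal samples in replicate 3, and no PVR sample reached that level. It fell by 1.04 on the log2 scale (SE 0.19, adjusted p = 0.0487 by edgeR), from 235 ± 59.6 FPKM to 121 ± 4.58 FPKM (SD, n = 3 each). The adjusted p of SLC16A1 was 0.137 without normal replicate 1, 0.146 without normal replicate 2, 0.254 without PVR replicate 1, 0.12 without PVR replicate 2, 0.0673 without PVR replicate 3 and 0.00248 without normal replicate 3 (all by edgeR).

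SLC16A3 (MCT4), an exporter of lactate in highly glycolytic cells, had 24.9, 23.2 and 19.0 FPKM in normal and 12.5, 8.98 and 12.1 FPKM in PVR. The groups were well apart. SLC16A3 fell by 1.07 on the log2 scale (SE 0.17, adjusted p = 0.0359 by edgeR), from 22.4 ± 3.06 FPKM to 11.2 ± 1.93 FPKM (SD, n = 3 each). It was the gene of the list with the most calls, under 0.05 in 10 of the 15 alternatives, and its adjusted p was 0.116 without normal replicate 1, 0.119 without normal replicate 2, 0.177 without PVR replicate 1 and 0.066 without PVR replicate 2 (all by edgeR). SLC16A1 and SLC16A3 were the 2 genes of the list past both the adjusted p and a log2 fold change of 1 in size, a pair of thresholds that 0.316% of all genes passed on the lower side.

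SLC16A8 (MCT3), which is specific to the basal side of the pigment epithelium, had 2.25, 3.28 and 1.16 FPKM in normal and 0.818, 0.704 and 0.787 FPKM in PVR. Its counts were low, from 41 to 241. The log2 fold change was -1.61 (SE 0.41, adjusted p = 0.0926 by edgeR, 0.0044 with DESeq2). SLC16A7 (MCT2), a neuronal form of high affinity, had 1.90 to 2.72 FPKM in normal and 2.37 to 3.01 FPKM in PVR, and the log2 fold change was 0.19 (adjusted p = 0.487 by edgeR). SLC16A1 made up 88.0% to 91.2% of the FPKM of the 4 transporters in all samples.

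BSG stood apart from SLC16A1, SLC16A3 and SLC16A8, which had negative log2 fold changes. It had 215, 201 and 118 FPKM in normal and 315, 198 and 390 FPKM in PVR. PVR replicate 2 lay within the normal range, and the log2 fold change was 0.69 (SE 0.31, adjusted p = 0.251 by edgeR). The FPKM ratio of BSG to SLC16A1 was 0.772, 0.777 and 0.702 in normal and 2.64, 1.58 and 3.34 in PVR, so it was above the normal samples in every PVR sample. This ratio was chosen after the values were seen. Embigin (EMB), a related partner of monocarboxylate transporters, had 6.55, 5.06 and 7.40 FPKM in normal and 9.87, 12.2 and 10.2 FPKM in PVR. All PVR samples were above the normal samples for EMB (log2 fold change 0.70, SE 0.14, adjusted p = 0.0587 by edgeR).

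**Figure D4:**
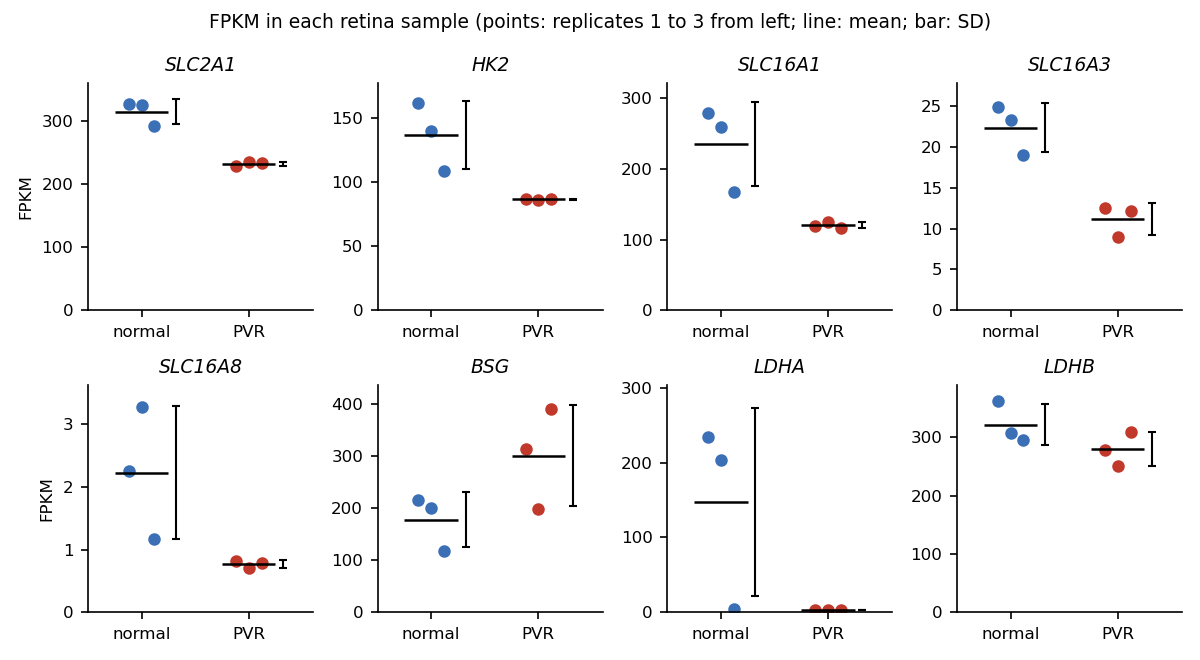
Points are the FPKM (y axis, starting at 0) of 8 genes in the normal (blue) and PVR (red) samples, with the mean as a line and the SD as a bar. SLC2A1, HK2, SLC16A1 and SLC16A3 have all PVR samples below all normal samples, LDHA is near 0 in normal replicate 3 as in PVR, and BSG overlaps.

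Markers of other cell types were read beside these values. Of 9 matched pigment epithelium markers, 8 were tested and 2 were called lower, against 0.615% of all genes. These were TTR, the retinol carrier transthyretin, and LRAT, an enzyme of the visual cycle (log2 fold changes -1.56 and -2.82, adjusted p = 0.0478 and 0.0459 by edgeR). DESeq2 called 4 of the list lower, against 3.33% of all genes, and limma-voom 0, against 0.396%. The list was mixed, with a median log2 fold change of -0.74 and 5 negative and 3 positive values of up to 0.53. All PVR samples were below all normal samples for 4 genes, against 9.69% of all genes, and above them for 1, against 17.0%. RPE65, the retinoid isomerase, had 51.0, 64.0 and 28.4 FPKM in normal and 18.4, 20.6 and 18.2 FPKM in PVR. The summed level of the list was 105 to 228 FPKM in normal and 56.5 to 69.9 FPKM in PVR, and only PMEL, a melanosome protein, was at 0 in any sample. For RPE65, TTR and LRAT, picked from the lower genes of this list, normal replicate 3 was the lowest normal sample. It was also the lowest for 24 of the 39 glycolytic genes, among them SLC2A1, HK2, GAPDH, LDHB, SLC16A1, SLC16A3, SLC16A8 and BSG. Normal replicate 2 was the lowest for 14 and normal replicate 1 for 1. The share among all genes was not counted. The part of the pigment epithelium in the transporter values was not tested.

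Of the 7 Mueller glia markers, 2 were called lower, against 0.615% of all genes. These were GLUL, which makes glutamine, and RLBP1, a retinoid carrier (log2 fold changes -1.11 and -0.89, adjusted p = 0.0125 and 0.0294 by edgeR). The median of that list was -0.03, with 4 negative and 3 positive values, SLC1A3 among the latter at 0.08. Its summed level, of which GLUL was the largest part, was 696 to 832 FPKM in normal and 503 to 634 FPKM in PVR. DESeq2 called 3 of these 7 markers lower, against 3.33% of all genes, and limma-voom 2, against 0.396%. All PVR samples were below all normal samples for 3 of the 7, against 9.69% of all genes, and above them for 0, against 17.0%. Of the 8 rod markers tested, 0 were called with edgeR, against 1.7% of all genes in either direction. An unadjusted p under 0.05 with a lower level was found for 4 rod markers, against 9.94% of all genes. The median log2 fold change of the rod markers, -0.29, was near that of the glycolytic genes. The summed level of the rod markers was 15068 to 18776 FPKM in normal and 11759 to 15748 FPKM in PVR, which overlap. DESeq2 called 1 rod marker lower, against 3.33% of all genes, and limma-voom 0, against 0.396%. The 12 markers of bipolar cells and other inner neurons had a median of -0.06, and the 8 markers of microglia and macrophages a median of 0.96. All PVR samples were above all normal samples for each of these 8, against 17.0% of all genes. With edgeR, 0 of these 8 were called higher, against 1.09% of all genes. DESeq2 called 3 higher, against 5.43%, and limma-voom 0, against 0.754%. An unadjusted p under 0.05 with a higher level was found for 6 of the 8, against 11.3% of all genes. The microglia and macrophage markers summed to 11.3 to 21.0 FPKM in normal and 27.8 to 38.9 FPKM in PVR. The 8 fibroblast and myofibroblast genes summed to 35.6 to 45.2 FPKM and 63.0 to 108 FPKM. Of these 8, 7 had positive values and 1 a negative one, and all PVR samples were above all normal samples for only 2, against 17.0% of all genes. With edgeR, 0 were called higher, against 1.09% of all genes, and 5 had an unadjusted p under 0.05 with a higher level, against 11.3%. DESeq2 called 2 higher, against 5.43%, and limma-voom 0, against 0.754%. The 6 endothelial genes summed to 2.17 to 9.59 FPKM in normal and 1.05 to 1.15 FPKM in PVR, and the 7 oligodendrocyte genes to 79.9 to 434 FPKM and 49.7 to 56.5 FPKM. In both lists the highest normal sum was that of normal replicate 3. With edgeR, 2 genes of each of these lists were called lower, against 0.615% of all genes. An unadjusted p under 0.05 with a lower level was found for 3 of the 6 and 7 of the 7, against 9.94% of all genes. The median log2 fold changes of the lists were -2.44 and -2.18. DESeq2 called 3 endothelial and 6 oligodendrocyte genes lower, against 3.33% of all genes. With limma-voom the numbers were 1 and 0, against 0.396%. The part of these cells in the glycolytic values was not tested.

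Pyruvate enters mitochondria through a carrier of 2 subunits. MPC1 had 53.2, 47.4 and 45.1 FPKM in normal and 35.1, 36.0 and 37.0 FPKM in PVR. MPC1 was lower in every PVR sample than in any normal sample (log2 fold change -0.50, SE 0.10, adjusted p = 0.058 by edgeR, 0.00269 with DESeq2). MPC2, the partner subunit, had 48.2, 42.5 and 37.4 FPKM in normal and 44.7, 46.1 and 38.6 FPKM in PVR. Its log2 fold change was -0.06 with edgeR and 0.02 on the log2(FPKM + 1) scale, so no direction can be given. The FPKM ratio of MPC2 to MPC1 was 0.829 to 0.907 in normal and 1.04 to 1.28 in PVR, a difference seen in the values and not tested.

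The pyruvate dehydrogenase complex, which turns pyruvate into acetyl-CoA, was measured through 4 of its genes. Their log2 fold changes were -0.20 for PDHA1, -0.10 for PDHB, -0.24 for DLAT and -0.11 for DLD, with adjusted p from 0.154 to 0.71 (edgeR). Only DLAT, the acetyltransferase core, had all PVR samples below all normal samples, and DLD turned to 0.03 without normal replicate 1.

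The complex is switched off by the PDK kinases and switched on again by phosphatases such as PDP1. PDK1 was the most abundant kinase, with 82.0, 72.0 and 51.6 FPKM in normal and 54.0, 52.9 and 49.8 FPKM in PVR. Normal replicate 3 lay within the PVR range for PDK1 (log2 fold change -0.47, SE 0.17, adjusted p = 0.182 by edgeR), and without that sample the adjusted p was 0.0204 by edgeR. PDK2 and PDK3 differed little (log2 fold changes -0.17 and 0.00). PDK4, the form induced by fasting, had 1.18, 2.05 and 1.54 FPKM in normal and 2.14, 3.31 and 1.61 FPKM in PVR, and the log2 fold change was 0.49 (adjusted p = 0.406 by edgeR). PDP1 had 19.0, 14.8 and 17.8 FPKM in normal and 21.6, 22.1 and 24.5 FPKM in PVR. It was the gene of the list with all PVR samples above all normal samples (log2 fold change 0.33, SE 0.10, adjusted p = 0.139 by edgeR). The FPKM ratio of PDP1 to PDK1, chosen after the values were seen, was 0.232, 0.206 and 0.345 in normal and 0.400, 0.417 and 0.492 in PVR.

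Genes of neighbouring pathways were read from lists of 87 genes, of which 84 were matched and 76 tested. With edgeR, 1 of the 76 was called lower, against 0.615% of all genes, and 0 were called higher, against 1.09% of all genes. The gene called was HKDC1, a further hexokinase domain protein, with 11.8, 12.4 and 12.8 FPKM in normal and 8.03, 9.13 and 7.12 FPKM in PVR (log2 fold change -0.68, SE 0.10, adjusted p = 0.0249 by edgeR). At an unadjusted p under 0.05, 17 were lower, against 9.94% of all genes, and 9 higher, against 11.3%, so that the higher share was near that of all genes. DESeq2 called 6 lower, against 3.33% of all genes, and 6 higher, against 5.43%. The median log2 fold change of the 76 genes was -0.07.

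The 8 genes of the pentose phosphate pathway, which supplies NADPH, had a median of -0.25, and 7 were negative. TKT, its transketolase, had 44.9, 45.8 and 47.5 FPKM in normal and 38.9, 32.7 and 39.7 FPKM in PVR (log2 fold change -0.38, SE 0.10, adjusted p = 0.0926 by edgeR). With edgeR, 0 of these 8 were called. An unadjusted p under 0.05 with a lower level was found for 5 of the 8, against 9.94% of all genes. All PVR samples were below all normal samples for 3, against 9.69% of all genes, and above them for 1, against 17.0%. The 12 genes of the tricarboxylic acid cycle had a median of -0.23, with 9 negative and 3 positive values. With edgeR, 0 of the 12 were called. An unadjusted p under 0.05 with a lower level was found for 6 of the 12, against 9.94% of all genes. All PVR samples were below all normal samples for 6, against 9.69% of all genes, and above them for 1, against 17.0%. OGDH, the oxoglutarate dehydrogenase, had 44.1, 44.7 and 44.4 FPKM in normal and 35.6, 38.7 and 36.3 FPKM in PVR (log2 fold change -0.34, SE 0.07, adjusted p = 0.064 by edgeR).

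The 13 genes of glycogen metabolism had a median of 0.23, with 9 positive and 4 negative values. All PVR samples were above all normal samples for 6 of the 13, against 17.0% of all genes, and below them for 1, against 9.69%. GYG1, glycogenin, the primer of glycogen synthesis, had 88.3, 99.1 and 89.7 FPKM in normal and 124, 111 and 116 FPKM in PVR, and the log2 fold change was 0.27 (SE 0.09, adjusted p = 0.16 by edgeR). With edgeR, 0 of the 13 were called. DESeq2 called 3 higher, against 5.43% of all genes, and limma-voom 0. An unadjusted p under 0.05 was found with a higher level for 5, against 11.3% of all genes, and with a lower level for 2, against 9.94%.

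The 9 genes of the NADH shuttles had a median of -0.08 and the 16 regulators of glycolytic genes a median of 0.00. Among these, HIF1A, the oxygen-regulated subunit of hypoxia-inducible factor, had 158, 132 and 169 FPKM in normal and 153, 149 and 167 FPKM in PVR (log2 fold change -0.03, SE 0.11, adjusted p = 0.876 by edgeR). The 16 regulators had 8 positive and 8 negative values, from -0.32 to 0.69, and 0 were called with edgeR. DESeq2 called 1 of them higher, against 5.43% of all genes, and 1 lower, against 3.33%. Of the gluconeogenesis list, 6 of 7 genes were matched and only PCK2 and G6PC3 passed the low-count filter, with log2 fold changes of -0.32 and -0.03.

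**Figure D5:**
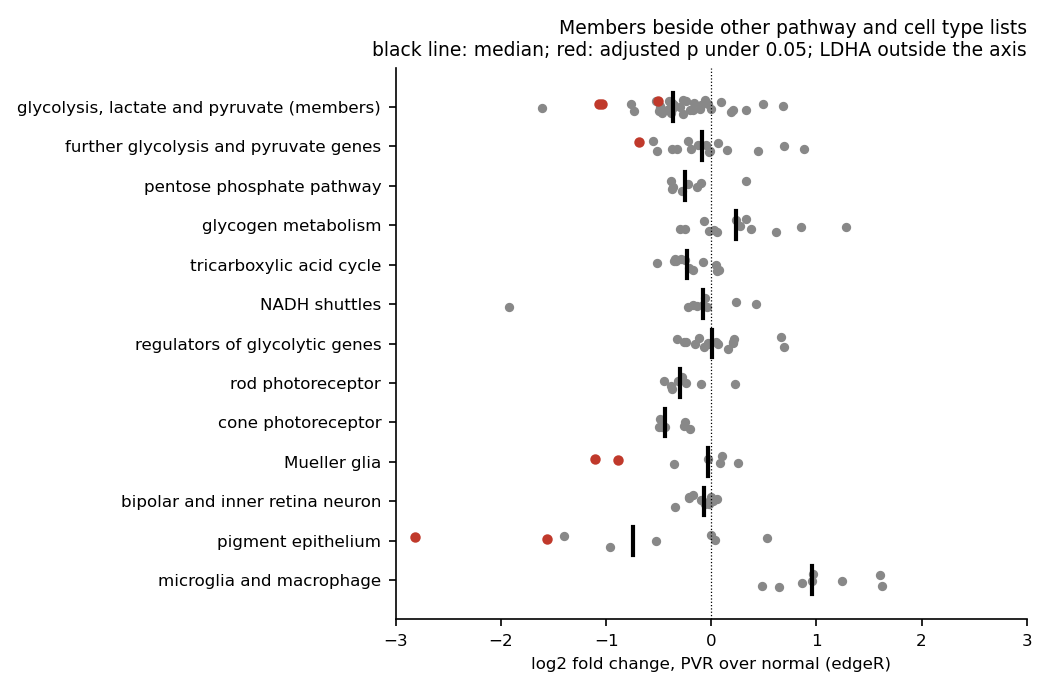
Each point is the log2 fold change (x axis, PVR over normal, edgeR) of a gene, arranged by list on the y axis, with the median as a black line and genes called at an adjusted p under 0.05 in red. The median of the glycolytic genes (-0.37) lies near those of the rod (-0.29) and cone (-0.44) markers and left of the glycogen list (0.23), and LDHA lies outside the axis. The medians of the pentose phosphate (-0.25) and tricarboxylic acid cycle (-0.23) lists are also negative.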

How the data were processed

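Retinal RNA was measured in 3 normal and 3 PVR samples, grouped by the condition their labels give. The labels name a VAHTS library kit and the study's methods another kit. The authors made the deposited raw counts with HISAT2 alignment to OryCun2.0 and htseq-count. The strand setting and annotation release are not given in the sources used here, so reads of overlapping genes cannot be told apart. The FPKM values the authors deposited use the same reads, since count over FPKM gave a constant length per gene in all samples (relative difference at most 4.24e-09).

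For the tests, edgeR 4.0.16 in R 4.3.3 was run on the counts of all genes (default low-count filter, TMM factors, quasi-likelihood test of condition). P-values were adjusted by Benjamini-Hochberg over 18697 genes, with 0.05 as the threshold. A log2 fold change over 1 in size, used in the study, was counted separately. SE is the absolute log2 fold change over the root of F. Shares and ratios of FPKM have no test. The code was tested on simulated counts, with a limit on false calls for edgeR and limma-voom but not for DESeq2. At 31904593 to 43035080 reads per sample, counting error is small for all but the rarest genes, and without molecular identifiers reads are not independent molecules.

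Of the 15 alternatives, 6 left out a sample each. The others were DESeq2 1.42.0, limma-voom (limma 3.58.1), RLE factors, upper-quartile factors, no low-count filter, a minimum of 10 counts in every sample, limma on FPKM with a pseudocount of 1 or of 0.1 before taking log2, and a block for the replicate number. The genes and lists were chosen with earlier results of these data known. Any gene of the main list could be named, and from each other list the genes past the adjusted p and the most abundant one. EMB, TKT, OGDH, PCK2, G6PC3, RPE65, PMEL, SAG, SLC1A3 and the ratios were named after their values were seen. Some genes of these lists are not reported here by name. Python 3.11.15, pandas 2.3.3 and matplotlib 3.10.9 made the tables and plots.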

Additional observations from a re-analysis of the deposited data

How the results depend on the processing

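Calls among the glycolytic genes depended on the test and on single samples, and the direction did so for few genes. The number of genes called lower was 16 with DESeq2, 1 with upper-quartile factors, 1 on both FPKM scales and 0 with a replicate block, against 3, and 0 to 9 with a sample left out. With limma-voom it was 2. The number past the fold threshold was 4 with DESeq2, 1 with upper-quartile factors, 1 with limma-voom and 0 on both FPKM scales and with the replicate block, against 2, and 0 to 4 with a sample left out. The share of all genes past both thresholds was counted only in the main edgeR fit, at 0.316% lower and 0.69% higher. The numbers for the other settings therefore have no background of their own. The number of all genes called was 1755 with DESeq2 and 92 with the replicate block, against 318, and 22 to 650 with a sample left out. The number of other pathway genes called was 12 with DESeq2, 2 without a low-count filter and 0 on both FPKM scales and with the replicate block, against 1, and 0 to 2 with a sample left out.

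The sign turned for a few genes whose log2 fold changes in the main edgeR fit lay between -0.11 and 0.20. Among them, PGAM2 had only 14 to 61 counts per sample. PGAM2 was 0.16 with limma-voom, 0.0045 with upper-quartile factors, 0.073 on the log2(FPKM + 1) scale, 0.22 on the log2(FPKM + 0.1) scale, 0.17 with the replicate block and -0.41 to 0.69 with a sample left out. MPC2 was 0.0178 and 0.0182 on these FPKM scales and -0.15 to 0.0399 with a sample left out. PDK3 was -0.0009 with the replicate block and -0.0735 to 0.0598 with a sample left out. With a sample left out, DLD lay between -0.25 and 0.0292, PFKFB2 between -0.0043 and 0.18 and PFKFB3 between -0.006 and 0.41. The cause was not tested.

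The deviations of same-numbered samples correlated at -0.01, 0.07 and 0.04, and those of samples with unlike numbers at -0.08 to 0.04. With 3 samples a group, such values cannot show whether the replicate numbers pair the samples. Across settings, the median of all genes stayed between -0.02 and 0.06. Averaged over genes, the squared spread of counts between samples was many times that of counting error alone. The multiple (chi-square per degree of freedom) was 52.5 to 198 for pairs of normal samples and 20.9 to 70.2 for pairs of PVR samples. Whether depth limits the calls was not tested.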
